A study of Mus musculus with 8 samples.

Results

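The 10 genes described here encode Toll-like receptors, proteins that carry lipopolysaccharide to them, and the signalling adaptor Myd88. They are Tlr1, Tlr2, Tlr3, Tlr4, Tlr5, Tlr9, Cd14, Ly96, Lbp and Myd88, chosen by name among 49585 gene identifiers, and all 10 were above the filter on low values that 16865 identifiers passed. RNA came from the intestine of 8 mice of the strain C57BL/6. The 4 Klebsiella recipients were set against the 4 Lactobacillus recipients, each library being 1 mouse and named by the mouse number in the labels. The labels state no genotype, sex, age, dose, length of exposure or stretch of intestine, nor what the recipients were given. No untreated mice were analysed here, so each group serves only as the comparison for the other.

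Toll-like receptors are membrane proteins that recognise parts of microbes on the cell surface (Tlr1, Tlr2, Tlr4, Tlr5) or inside endosomes (Tlr3, Tlr9). Lipopolysaccharide, the outer-membrane glycolipid of Gram-negative bacteria such as Klebsiella, is taken up by the binding protein Lbp, passed to Cd14 and then to the complex of Tlr4 with Ly96 (also called MD-2). Lactobacillus is Gram-positive and carries lipopeptides and lipoteichoic acid, ligands of Tlr2 with its partners Tlr1 and Tlr6. Myd88 is the adaptor through which these receptors other than Tlr3 signal to NF-kB. In the gut these genes are active in macrophages, B cells, stromal cells and parts of the epithelium, and in whole tissue fewer cells of a type and less RNA per cell cannot be told apart.

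Sequence bears on how well one of these genes can be measured. Tlr1 (chromosome 5, 64924679 to 64933563, minus strand) and Tlr6 (chromosome 5, 64952031 to 64960097, minus strand) lie 18468 bases apart on GRCm38 in GENCODE M21. Their longest transcripts share 9 exact runs of at least 30 bases, 873 bases in all, each inside the coding part of both. The longest run has 229 bases, in Tlr1 from 64925537 to 64925765 and in Tlr6 from 64953828 to 64954056, and a read inside it cannot be assigned to either gene by sequence:
Tlr1 and Tlr6 shared run: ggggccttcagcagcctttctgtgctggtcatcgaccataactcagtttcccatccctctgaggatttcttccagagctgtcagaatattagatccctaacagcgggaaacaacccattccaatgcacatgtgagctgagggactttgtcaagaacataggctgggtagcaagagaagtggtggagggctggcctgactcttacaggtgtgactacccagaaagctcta
Of all stretches of 100 bases in the transcripts, 7.89% of those of Tlr1 and 7.09% of those of Tlr6 occur in the other gene. The share was 3.32% for Tlr3, with the antisense gene Gm45542, and 4.69% for Myd88, with the overlapping gene Acaa1a on the other strand. Myd88 also overlaps Slc22a14 on its own strand. No label or header says if reads were counted by strand, so reads of such overlapping genes may be mixed. The other 7 genes shared no stretch of 100 bases with another gene. Of the others, 3 lie on GRCm38 at chromosome 4, 66827584 to 66930284 (Tlr4), chromosome 1, 16688051 to 16709611 (Ly96), and chromosome 2, 158306493 to 158332852 (Lbp). Tlr2 lies on chromosome 3 from 83836272 to 83841767, Tlr3 on chromosome 8 from 45395665 to 45411080, and Tlr5 on chromosome 1 from 182954788 to 182976044. Tlr9, from 106222598 to 106226883, and Myd88, from 119335934 to 119341411, share chromosome 9.

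The promoters of the most and the least abundant of the 10 genes are shown to let their bases be compared. The RefSeq table (GRCm38.p6) matched 6 of the 10, namely Tlr1, Tlr2, Tlr3, Tlr5, Tlr9 and Myd88, with 2 starts for Tlr1, of which the one nearer the annotated gene start is shown. The 250 bases before the start are printed 5′ to 3′ on the gene's strand, with matches to any of 6 motifs on either strand in capitals:
Tlr1, chr5:64933559-64933808, minus strand: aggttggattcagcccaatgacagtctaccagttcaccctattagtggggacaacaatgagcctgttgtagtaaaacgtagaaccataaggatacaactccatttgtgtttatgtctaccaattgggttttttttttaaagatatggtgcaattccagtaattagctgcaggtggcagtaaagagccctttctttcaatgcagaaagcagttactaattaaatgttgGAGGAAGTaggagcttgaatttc
Tlr9, chr9:106222348-106222597, plus strand: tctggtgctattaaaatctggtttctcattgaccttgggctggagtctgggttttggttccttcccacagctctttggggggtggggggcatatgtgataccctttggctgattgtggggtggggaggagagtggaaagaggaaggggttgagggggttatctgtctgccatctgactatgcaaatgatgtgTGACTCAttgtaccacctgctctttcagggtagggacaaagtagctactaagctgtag
The motifs were GGG, any 2 bases and TTTCC for NF-kB, GAAA, any 2 bases and GAAA for the interferon response element (ISRE), GAGGAAGT for ETS factors, GGGCGG for Sp1, TATAAA for the TATA box and TGANTCA for AP-1. Each printed window held 1 match, so none overlapped. Tlr1 held the ETS letters, found in 2.44% of 32851 promoters of that length, and Tlr9 the AP-1 letters, found in 6.75%. G or C made up 39.2% of the Tlr1 window and 50.4% of the Tlr9 window, against a median of 52.4%, with 1 and 0 CpG against a median of 6. Among the other 4 genes, Tlr3 held the NF-kB letters, found in 1.41% of promoters, and Myd88 the ISRE letters, found in 2.98%. The RefSeq starts of these windows lay 700 bases from the GENCODE gene start for Tlr3 and 1393 for Myd88, against 159 for Tlr2 and 0 for Tlr5. The Sp1 letters, found in 32.7% of promoters, occurred 2 times each in Tlr2 and Tlr5 and 1 time in Myd88, which also held the TATA letters 2 times, found in 12.4%. The values are descriptions of these windows and say nothing of binding.

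Filtered reads per library numbered 40455910 to 50037338 for Klebsiella recipients, against 40607918 to 55447220 for Lactobacillus recipients. Libraries correlated at 0.949 to 0.976 across genes. Values are the authors' FPKM, fragments scaled by gene length and by library size, so genes can be compared within a library. The reads behind each value were worked back from the steps between values. Epithelial markers were abundant in every library, with Krt8 the highest at a mean of 2340 FPKM. A pair of libraries stood apart in Hoxb6, a position marker, at 40.2 FPKM in Klebsiella 3 and 45.2 in Lactobacillus 2 against 1.16 to 3.87 elsewhere. Hoxd13, a marker of the hind end of the gut, was at 46.3, 3.25, 2.2 and 8.03 FPKM in Klebsiella libraries 1 to 4, against 43.9, 19.1, 27.3 and 39.2 in Lactobacillus libraries 1 to 4, so that 3 of 4 Klebsiella libraries lay below all Lactobacillus libraries (log2 difference -1.97, SE 0.79, limma adjusted p 0.774). Klebsiella 2 and Lactobacillus 3 held pancreatic transcripts, with Ctrb1, a pancreatic protease, at 418 and 112 FPKM against 0.131 to 2.99 elsewhere. Of the 5 acinar markers Cela1 alone was high in every library, at 185 to 450 FPKM. Adipocyte markers were above 0 in at least 1 library for 6 of 6. They summed to 19.5 to 26.6 FPKM in Klebsiella and 32.2 to 189 in Lactobacillus libraries, without overlap, the highest sum being that of Lactobacillus 4. Singly, Adipoq and Cfd did not overlap between groups, as 2.99% of all genes did not, while Plin1, Lep, Fabp4 and Retn overlapped. The 5 adipocyte markers tested all had negative differences. Unadjusted limma p were 0.0135 for Adipoq, 0.0102 for Plin1, 0.0125 for Cfd, 0.0198 for Retn and 0.114 for Fabp4. Of all genes, 6.07% had an unadjusted p under 0.05. After adjustment 0 of the 5 passed, as 0% of all genes did.

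The 10 genes spanned a wide range of levels. Over the 8 libraries the means ran from 36.8 FPKM for Tlr1 and 34.4 for Cd14, through 17.4 for Tlr4, 17.2 for Myd88, 13.4 for Tlr3 and 9.16 for Ly96, to 5.11 for Tlr2, 3.36 for Lbp, 2.18 for Tlr5 and 0.789 for Tlr9. Neighbours in this order were often not separable. Tlr1 exceeded Cd14 in 6 of 8 libraries, and Tlr4 exceeded Myd88 in only 2 of 8 although its mean was higher. Cd14 exceeded Tlr4, Tlr3 exceeded Ly96, Ly96 exceeded Tlr2 and Tlr5 exceeded Tlr9 in 8 of 8 libraries. Only for Tlr5 and Tlr9 did the ranges of neighbours not overlap.

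**Figure D1:**
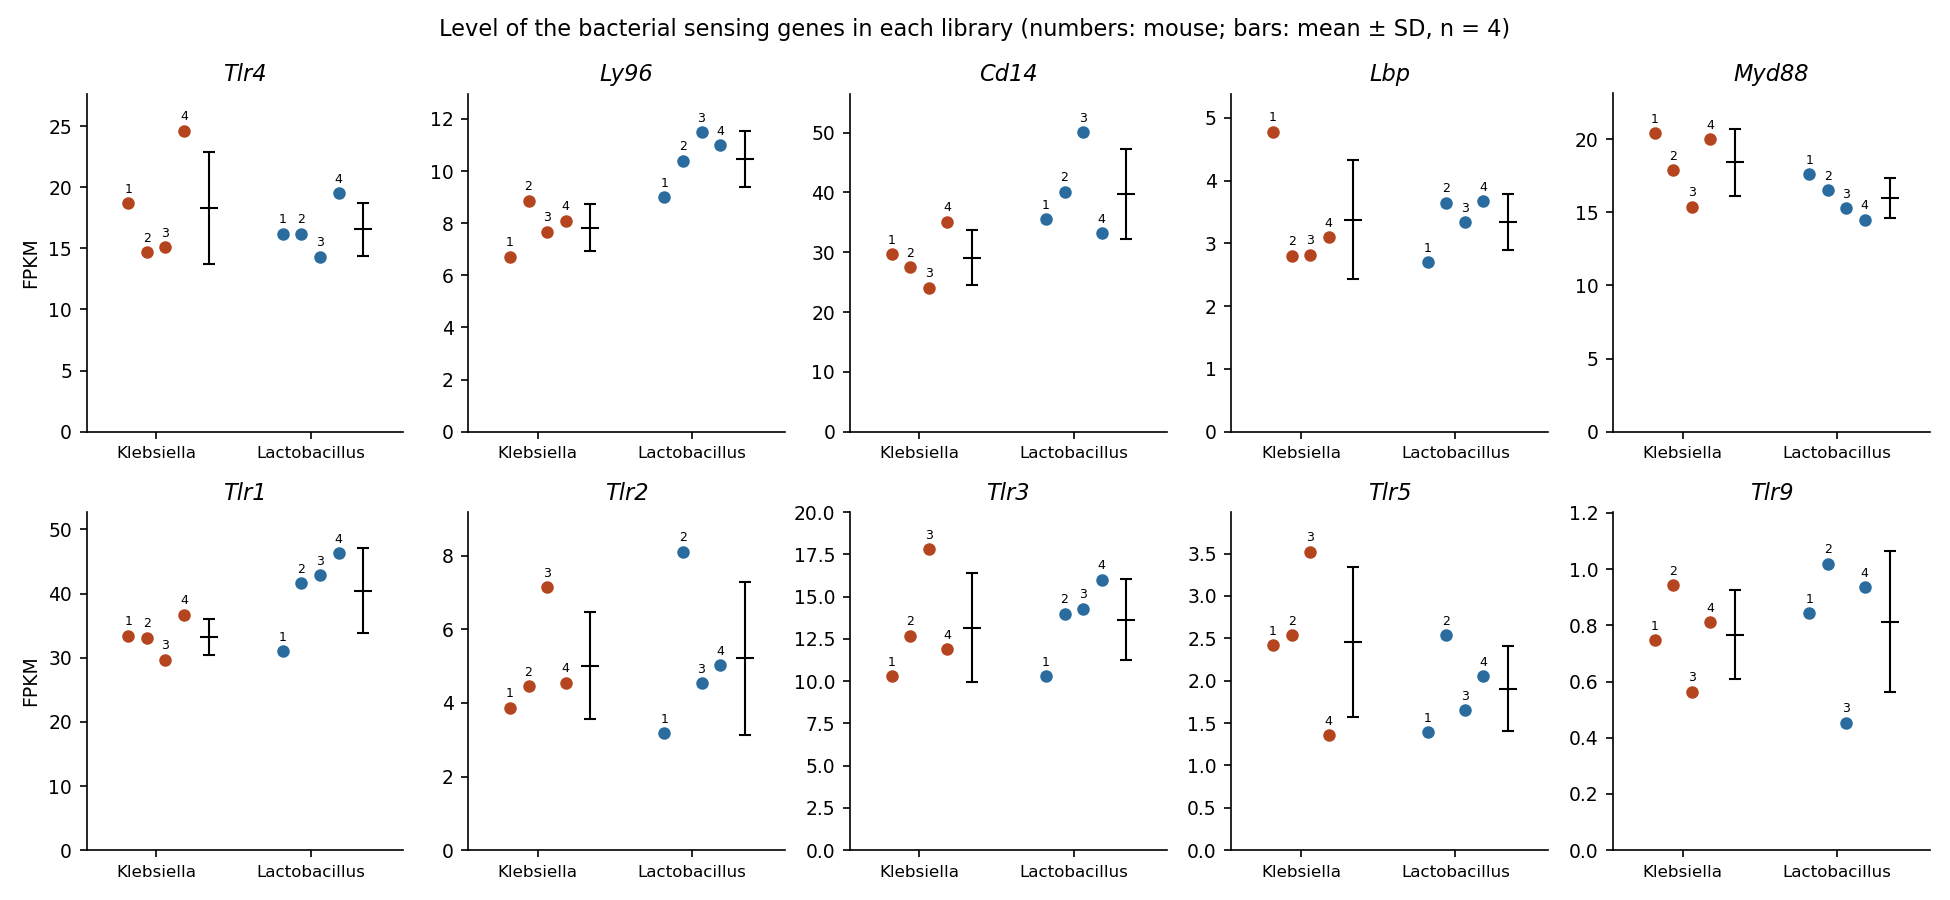
FPKM of each gene (y axis, a scale of its own in each panel) in the 4 Klebsiella libraries on the left and the 4 Lactobacillus libraries on the right, numbered by mouse, with mean and SD beside them. Ly96 is the gene whose groups do not touch, at 6.71 to 8.86 against 9.0 to 11.5 FPKM.

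For the lipopolysaccharide receptor complex, the comparison asked whether mice labelled Klebsiella recipients differed from those labelled Lactobacillus recipients. Tlr4, the signalling receptor, was at 18.7, 14.7, 15.1 and 24.6 FPKM in Klebsiella libraries 1 to 4, against 16.2, 16.2, 14.3 and 19.5 in Lactobacillus libraries 1 to 4. Klebsiella 4 held the highest level and the groups overlapped. The means were 18.3 ± 4.59 FPKM for Klebsiella and 16.6 ± 2.18 FPKM for Lactobacillus (SD, n = 4 each), a log2 difference of 0.12 with a 95% interval from -0.27 to 0.51 (limma adjusted p 0.894). Without Klebsiella 4 the difference was -0.032.

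Ly96, the lipid-binding co-receptor of Tlr4, was at 6.71, 8.86, 7.67 and 8.10 FPKM in Klebsiella libraries 1 to 4, against 9.0, 10.4, 11.5 and 11.0 in Lactobacillus libraries 1 to 4. Every Klebsiella library lay below every Lactobacillus library, the gap being between Klebsiella 2 and Lactobacillus 1. The means were 7.83 ± 0.896 FPKM for Klebsiella and 10.5 ± 1.08 FPKM for Lactobacillus (SD, n = 4 each), a ratio of 0.747, and the log2 difference was -0.40 (SE 0.12, 95% interval -0.68 to -0.12). Its unadjusted limma p of 0.0104 was the 171st of 16865, and it did not pass after adjustment (limma adjusted p 0.774, and 0.366 to 0.985 over the alternatives). The Klebsiella values rest on 61 to 98 reads and the Lactobacillus values on 83 to 143. Its spread within groups, an SD of 0.152 on the log2 scale, was close to the 0.143 that counting error alone gives.

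Cd14, the glycolipid-anchored protein that hands lipopolysaccharide to Tlr4 and Ly96, was at 29.7, 27.5, 24.1 and 35.1 FPKM in Klebsiella libraries 1 to 4, against 35.5, 40.1, 50.1 and 33.2 in Lactobacillus libraries 1 to 4. Here 3 of 4 Klebsiella libraries lay below all Lactobacillus libraries, and Klebsiella 4 lay above Lactobacillus 4. The means were 29.1 ± 4.64 FPKM for Klebsiella and 39.7 ± 7.49 FPKM for Lactobacillus (SD, n = 4 each), and the log2 difference was -0.44 (SE 0.15, 95% interval -0.79 to -0.09). It did not pass either (unadjusted p 0.0195, limma adjusted p 0.774, and 0.381 to 0.985 over the alternatives). With 617 to 958 reads in Klebsiella against 893 to 1702 in Lactobacillus, counting error alone gives an SD of 0.047 on the log2 scale, against the 0.241 seen within groups.

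The differences of Ly96 and Cd14 kept their sign without the libraries that stood apart. Without the pair with high Hoxb6 they were -0.39 and -0.34, and without the pair with high Ctrb1, -0.41 and -0.30. Macrophage markers, 10 of 10 above 0 and led by Lyz2, summed to 306 to 392 FPKM in Klebsiella libraries, against 333 to 534 in Lactobacillus libraries. Of the 10, 7 had negative differences, where 46.4% of all genes had positive ones, and 0 passed. Neutrophil markers, of which Ngp was at 0, summed to 2.52 to 25.1 FPKM in Klebsiella libraries, the highest in Klebsiella 4, against 0.874 to 6.14 in Lactobacillus libraries. The part of these cells, and of the adipocytes whose summed markers did not overlap between groups, in the levels of Ly96 and Cd14 was not tested. Hoxd13 was also lower in 3 of the 4 Klebsiella libraries. With log2 Hoxd13 as a covariate the difference was -0.54 for Ly96 and -0.37 for Cd14 (limma adjusted p 0.466 and 0.565).

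Lbp, the serum protein that extracts lipopolysaccharide from bacteria and is made mainly by hepatocytes, was at 4.78, 2.80, 2.82 and 3.10 FPKM in Klebsiella libraries 1 to 4, against 2.70, 3.65, 3.34 and 3.67 in Lactobacillus libraries 1 to 4. Klebsiella 1 stood above the rest. The log2 difference was -0.01 with a 95% interval from -0.43 to 0.42 (limma adjusted p 0.998), from 70 to 115 reads in Klebsiella against 66 to 110 in Lactobacillus. Hepatocyte markers summed to 22.0 to 42.9 FPKM in Klebsiella libraries, against 29.1 to 55.0 in Lactobacillus libraries, nearly all of it Ttr. Of the others, Alb averaged 1.35 FPKM over the 8 libraries, Apoa1 averaged 0.194, and Serpina1a and Fgb were above 0 in 1 library each. Their part in the level of Lbp was not tested.

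**Figure D2:**
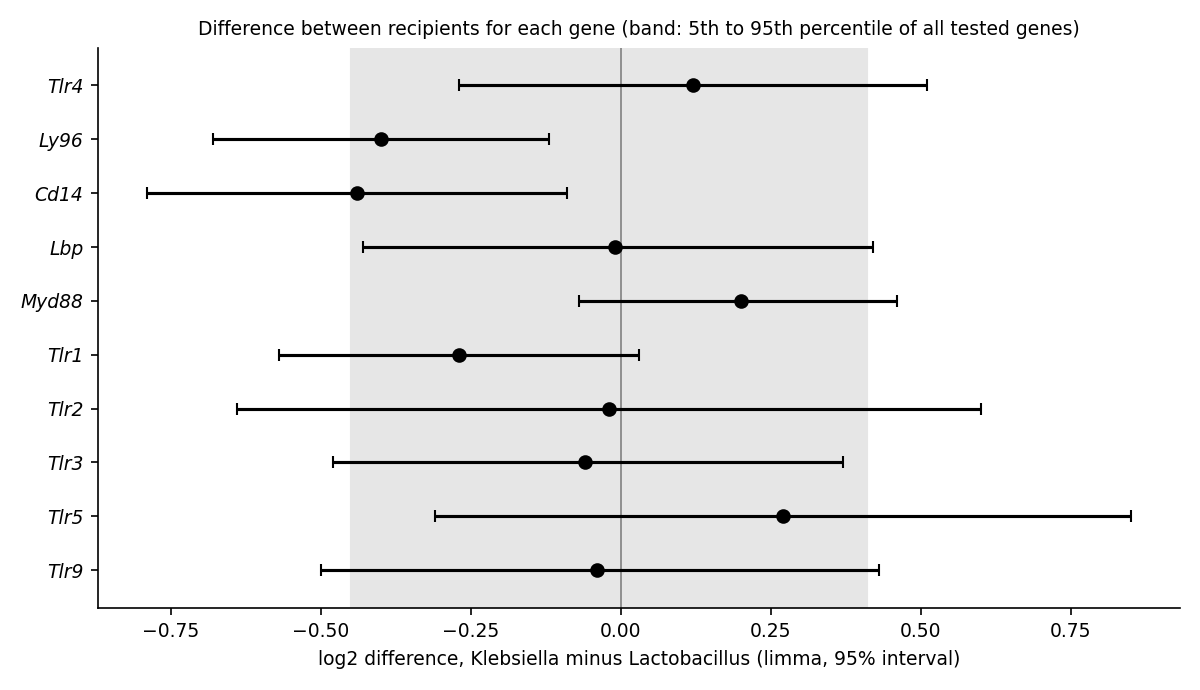
Log2 difference of each gene, Klebsiella minus Lactobacillus (x axis), with its 95% interval from limma; the grey band spans the 5th to 95th percentile of all tested genes, -0.45 to 0.41. The intervals of Ly96 and Cd14 lie below 0 before any adjustment for the number of genes, and the other 8 include 0.

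Set against Tlr4 within each library, its partners were lower on average in Klebsiella recipients, without passing. The ratio of Ly96 to Tlr4 was 0.359, 0.602, 0.507 and 0.329 in Klebsiella libraries 1 to 4, against 0.557, 0.643, 0.805 and 0.563 in Lactobacillus libraries 1 to 4. The log2 ratio differed by -0.52 (two-sided exact permutation p 0.0857, adjusted p 0.171 over 4 ratios). The ratio of Cd14 to Tlr4 was 1.59, 1.87, 1.59 and 1.43 in Klebsiella libraries 1 to 4, against 2.19, 2.47, 3.51 and 1.70 in Lactobacillus libraries 1 to 4. The log2 ratio differed by -0.56 (two-sided exact permutation p 0.0571, adjusted p 0.171). Both ratios overlapped between groups, and each shares Tlr4 with the other. The smallest p that 4 against 4 libraries allow is 0.0286, which becomes 0.114 for 1 ratio alone after adjustment over 4. Neither a single ratio nor both Tlr4 ratios alone could therefore have passed, whatever their values.

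**Figure D3:**
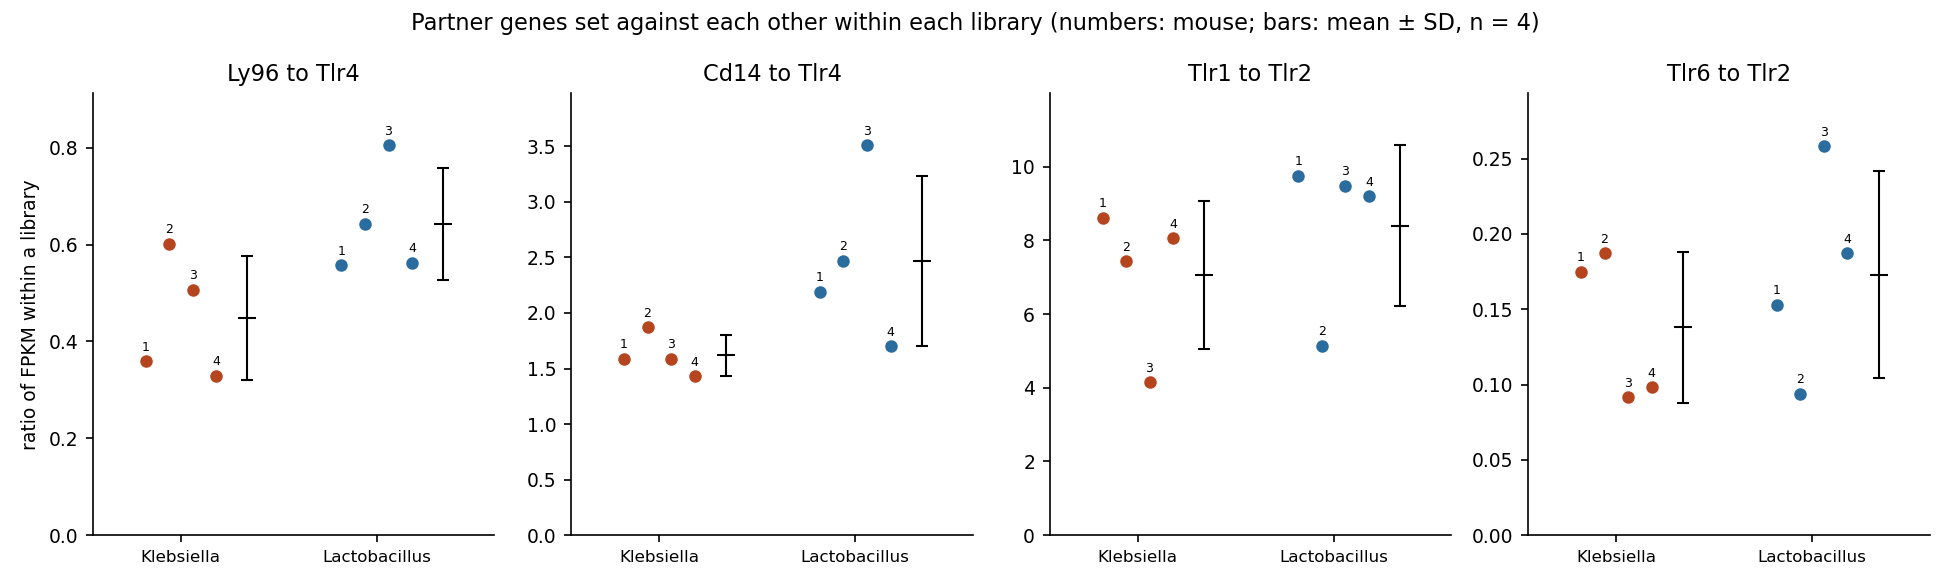
Ratio of FPKM of partner genes within each library (y axis, a scale of its own in each panel), Klebsiella libraries left of Lactobacillus libraries, numbered by mouse, with mean and SD. The Cd14 to Tlr4 ratio reaches 1.87 in Klebsiella libraries and 3.51 in Lactobacillus libraries, with Lactobacillus 4 at 1.70 inside the Klebsiella range.

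The lipopeptide receptors were unequal in level. Tlr1, which pairs with Tlr2 to bind triacylated lipopeptides, was at 33.4, 33.1, 29.7 and 36.7 FPKM in Klebsiella libraries 1 to 4, against 31.0, 41.6, 42.9 and 46.3 in Lactobacillus libraries 1 to 4. Lactobacillus 1 lay among the Klebsiella libraries and the other three lay above them. The means were 33.2 ± 2.86 FPKM for Klebsiella and 40.5 ± 6.63 FPKM for Lactobacillus (SD, n = 4 each), a log2 difference of -0.27 with a 95% interval from -0.57 to 0.03 (unadjusted p 0.0713, limma adjusted p 0.774). Without Lactobacillus 1 it was -0.39.

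Tlr2, the shared partner, was at 3.87, 4.46, 7.14 and 4.55 FPKM in Klebsiella libraries 1 to 4, against 3.17, 8.10, 4.53 and 5.03 in Lactobacillus libraries 1 to 4. Its 2 highest values were in Klebsiella 3 and Lactobacillus 2, the libraries with high Hoxb6, and the others lay between 3.17 and 5.03. The log2 difference between recipients was -0.02 with a 95% interval from -0.64 to 0.60 (limma adjusted p 0.994), and 0.033 without that pair. With log2 Hoxd13 as a covariate the difference of Tlr2 was -0.40 (limma adjusted p 0.674). The SD of Tlr2 within groups, 0.436, was larger than that of most genes, 18.4% of all tested genes having a larger one. It was well above the 0.081 of counting error. The part of gut position in the level of Tlr2 was not tested.

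Tlr6, the other partner of Tlr2, was at 0.676, 0.833, 0.654 and 0.447 FPKM in Klebsiella libraries 1 to 4, against 0.485, 0.760, 1.17 and 0.940 in Lactobacillus libraries 1 to 4. The ratio of Tlr1 to Tlr2 was 4.15 to 8.62 in Klebsiella libraries, against 5.14 to 9.76 in Lactobacillus libraries. That of Tlr6 to Tlr2 was 0.0916 to 0.187 in Klebsiella libraries, against 0.0938 to 0.258 in Lactobacillus libraries. Tlr1 was therefore above Tlr2 and Tlr6 below it in every library. The log2 ratios, unlike these plain ratios, were taken with 0.5 added to each FPKM. For Tlr1 to Tlr2 the log2 ratio differed by -0.25 (two-sided exact permutation p 0.457, adjusted p 0.61). For Tlr6 to Tlr2 it differed by -0.18 (two-sided exact permutation p 0.771, adjusted p 0.771), and by -0.27 with 0.1 added. Neither passed, and as above a single ratio alone could not have passed after adjustment. Reads in the runs that Tlr1 and Tlr6 share could move between them or be lost.

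The receptors for flagellin and nucleic acids overlapped between recipient groups. Tlr5, the flagellin receptor, was at 2.42, 2.54, 3.52 and 1.36 FPKM in Klebsiella libraries 1 to 4, against 1.39, 2.54, 1.65 and 2.05 in Lactobacillus libraries 1 to 4. Both the highest and the lowest library were Klebsiella recipients. The log2 difference was 0.27 with a 95% interval from -0.31 to 0.85 (limma adjusted p 0.825), from 53 to 129 reads in Klebsiella against 50 to 113 in Lactobacillus, and 0.11 without Klebsiella 3 but 0.48 without Klebsiella 4. Paneth cell markers, a possible source of Tlr5 in mouse small intestine, were led by Lyz1 at a mean of 7.15 FPKM, with Defa17 and Defa22 at 0 in all libraries.

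Tlr3, which binds double-stranded RNA, was at 10.3, 12.7, 17.8 and 11.9 FPKM in Klebsiella libraries 1 to 4, against 10.3, 14, 14.3 and 16 in Lactobacillus libraries 1 to 4. Replicate 1 was lowest in both groups. The log2 difference was -0.06 with a 95% interval from -0.48 to 0.37 (limma adjusted p 0.962), and -0.21 without Klebsiella 3.

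Tlr9, which binds unmethylated CpG DNA and is active in B cells, was at 0.747, 0.943, 0.564 and 0.812 FPKM in Klebsiella libraries 1 to 4, against 0.844, 1.02, 0.453 and 0.935 in Lactobacillus libraries 1 to 4. Klebsiella 3 and Lactobacillus 3 were the lowest libraries. The log2 difference was -0.04 with a 95% interval from -0.50 to 0.43 (limma adjusted p 0.979), from only 32 to 63 reads in Klebsiella against 34 to 70 in Lactobacillus, and -0.18 without Lactobacillus 3. B cell markers, 7 of 7 above 0 and led by Cd79a, were lowest in the same libraries, their sums being 47.9, 64.1, 22.5 and 57.7 FPKM in Klebsiella libraries 1 to 4 and 49.8, 58.5, 23.8 and 66.1 in Lactobacillus libraries 1 to 4. The part of B cell content in the level of Tlr9 was not tested. Of the markers of plasmacytoid dendritic cells, another known source, Bst2 and Tcf4, which many cell types express, made up most of the sum at means of 52.0 and 47.1 FPKM. Siglech, which is more restricted to these cells, averaged 0.662 FPKM in Klebsiella libraries, against 0.947 in Lactobacillus libraries, with overlapping groups (limma adjusted p 0.774), and Ccr9 averaged 0.342 FPKM over the 8 libraries. Their part in the level of Tlr9 was not tested.

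**Figure D4:**
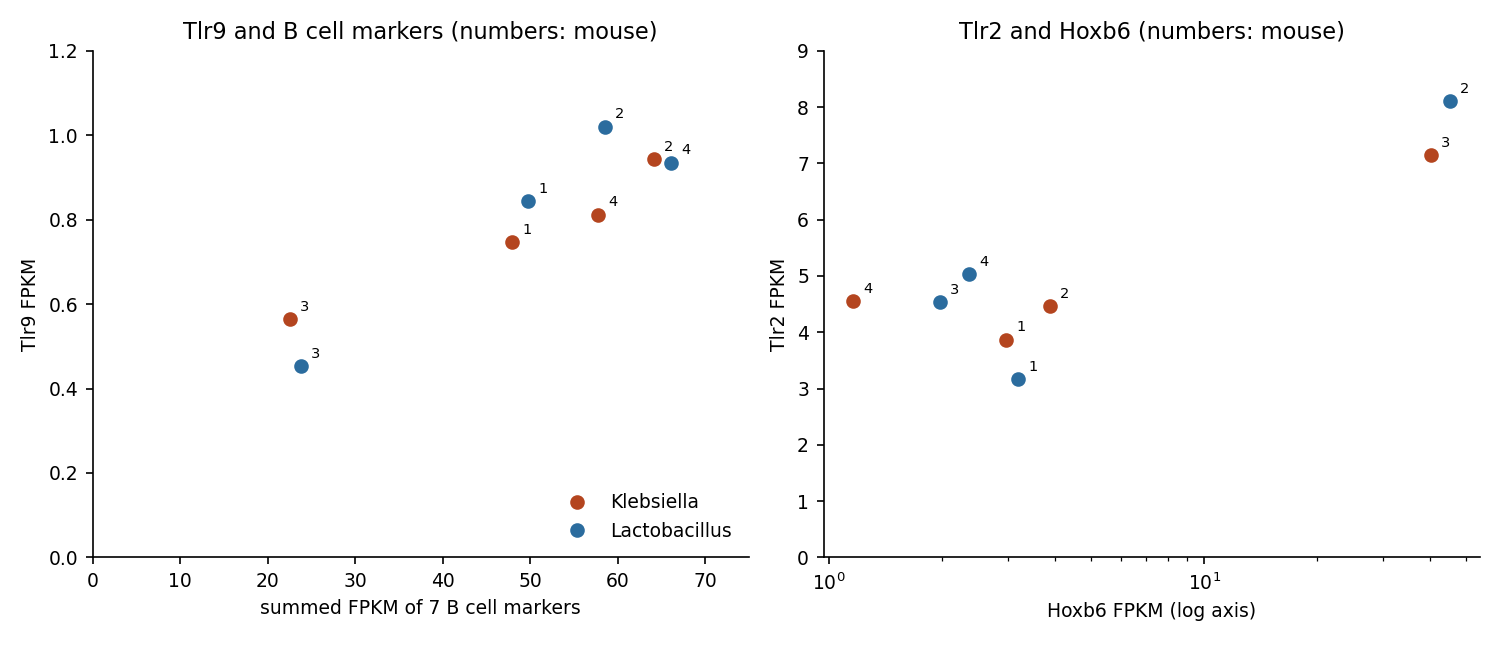
Left, Tlr9 FPKM (y axis) against the summed FPKM of 7 B cell markers (x axis); right, Tlr2 FPKM (y axis) against Hoxb6 FPKM (log x axis). Each point is 1 library, numbered by mouse and coloured by recipient group. Klebsiella 3 and Lactobacillus 3 are lowest in Tlr9 and B cell markers, and Klebsiella 3 and Lactobacillus 2 are highest in Tlr2 and Hoxb6.

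Myd88, the adaptor, varied the least of the 10 genes, with a coefficient of variation of 12.6% over the 8 libraries. It was at 20.4, 17.9, 15.4 and 20 FPKM in Klebsiella libraries 1 to 4, against 17.6, 16.5, 15.3 and 14.5 in Lactobacillus libraries 1 to 4. Klebsiella 3 lay within the Lactobacillus range and the other Klebsiella libraries above it. The means were 18.4 ± 2.28 FPKM for Klebsiella and 16 ± 1.37 FPKM for Lactobacillus (SD, n = 4 each), a log2 difference of 0.20 with a 95% interval from -0.07 to 0.46 (unadjusted p 0.124, limma adjusted p 0.774).

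Over the 10 genes, 0 passed limma at an adjusted p under 0.05, against 0% of the 16865 genes tested, and limma-voom on the recovered reads also passed 0. At an unadjusted p under 0.05 there were 2, Ly96 and Cd14, both lower in Klebsiella recipients, where 6.07% of all genes had such a p and 3.52% did so with a lower level. Groups did not overlap for 1 of the 10, Ly96, against 2.99% of all genes, or 1.8% on the lower side and 1.19% on the higher side. Of all genes with an unadjusted p under 0.05, 42.0% were higher in Klebsiella recipients, and 58.2% when FPKM were set to a constant total. The differences were positive for 3 and negative for 7, where 46.4% of all genes had positive ones. Their median was -0.03 beside -0.02 for all genes. None of the 10 was among the 15 genes in the authors' deposited table of differing genes.

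The rest of the pathway gave 82 further genes in 7 lists, of which 72 were tested and 0 passed. At an unadjusted p under 0.05, 4 were higher and 2 lower in Klebsiella recipients, against 2.55% and 3.52% of all genes. Groups did not overlap for 2 on the higher and 2 on the lower side, against 1.19% and 1.8%. The median difference was 0.10 beside -0.02 for all genes. There were 44 positive and 28 negative, or 61.1% positive against 46.4% of all genes. Below the filter were Tlr11, the adaptor Ticam2, the target genes Il6, Il10, Il12b, Cxcl2 and Acod1, and Pglyrp2, Pglyrp3 and Bpifa1. Of these Bpifa1 was at 0 in every library and the highest single value was 1.04 FPKM, for Pglyrp2 in Lactobacillus 2.

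Among the other Toll-like receptors 0 of 5 tested passed, and Tlr6 and Tlr7 had log2 differences of -0.20 and -0.05. Among chaperones and trafficking proteins 0 of 8 passed, with 6 negative. Unc93b1, which carries endosomal receptors out of the endoplasmic reticulum, was at 41.0 ± 3.22 FPKM for Klebsiella and 48.2 ± 5.71 for Lactobacillus (SD, n = 4 each), and Ctss, a protease that processes them, at 142 ± 17.8 FPKM for Klebsiella and 193 ± 56.7 for Lactobacillus (limma adjusted p 0.774 for both).

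Among adaptors and kinases 0 of 14 passed. Tirap, the adaptor that brings Myd88 to Tlr2 and Tlr4, was at 13.4, 12.5, 14.1 and 18.1 FPKM in Klebsiella libraries 1 to 4, against 12.2, 9.89, 11.4 and 12.4 in Lactobacillus libraries 1 to 4. The groups did not overlap, by a narrow margin. The difference was 0.32 on the log2 scale (SE 0.14, limma adjusted p 0.774). Tab1, a partner of the kinase Map3k7, had a log2 difference of -0.34. Among brakes on the pathway 0 of 12 passed, with Irak3, which blocks signalling below Myd88, at 4.01 ± 0.453 FPKM in Klebsiella libraries, against 3.00 ± 0.397 in Lactobacillus libraries (SD, n = 4 each), which is 0.37 on the log2 scale (SE 0.14, limma adjusted p 0.774). Tnip1 had a log2 difference of -0.31.

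Among transcription factors of the pathway 0 of 9 passed. Nfkbiz, an inducible regulator of NF-kB, had the smallest p of the 72 genes. It was at 9.34, 13.3, 12.3 and 12.4 FPKM in Klebsiella libraries 1 to 4, against 15.6, 19.6, 16.4 and 15.5 in Lactobacillus libraries 1 to 4, without overlap. The log2 difference was -0.49 (SE 0.13, unadjusted p 0.00479, limma adjusted p 0.774). Rela, the NF-kB subunit p65, had a log2 difference of 0.38 with overlapping groups.

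Among inducible targets 0 of 15 tested passed, with 10 positive and a median of 0.20. Ptgs2, the inducible cyclooxygenase, was at 9.53, 16, 3.47 and 7.88 FPKM in Klebsiella libraries 1 to 4, against 5.87, 2.88, 2.35 and 2.49 in Lactobacillus libraries 1 to 4. Klebsiella 3 lay below Lactobacillus 1, so the groups overlapped. The difference was 1.23 on the log2 scale (SE 0.43, limma adjusted p 0.774). The chemokine Ccl2 averaged 7.61 ± 4.68 FPKM in Klebsiella libraries, against 2.24 ± 2.36 in Lactobacillus libraries (SD, n = 4 each), which is 1.61 on the log2 scale (SE 0.69, limma adjusted p 0.774). Among other genes that handle bacterial products 0 of 9 tested passed. Pglyrp1, a secreted peptidoglycan-binding protein, was at 257, 227, 241 and 252 FPKM in Klebsiella libraries 1 to 4, against 263, 316, 316 and 271 in Lactobacillus libraries 1 to 4, without overlap. It differed by -0.25 on the log2 scale (SE 0.09, limma adjusted p 0.774). Ripk2, the kinase below Nod1 and Nod2, had a log2 difference of 0.37.

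**Figure D5:**
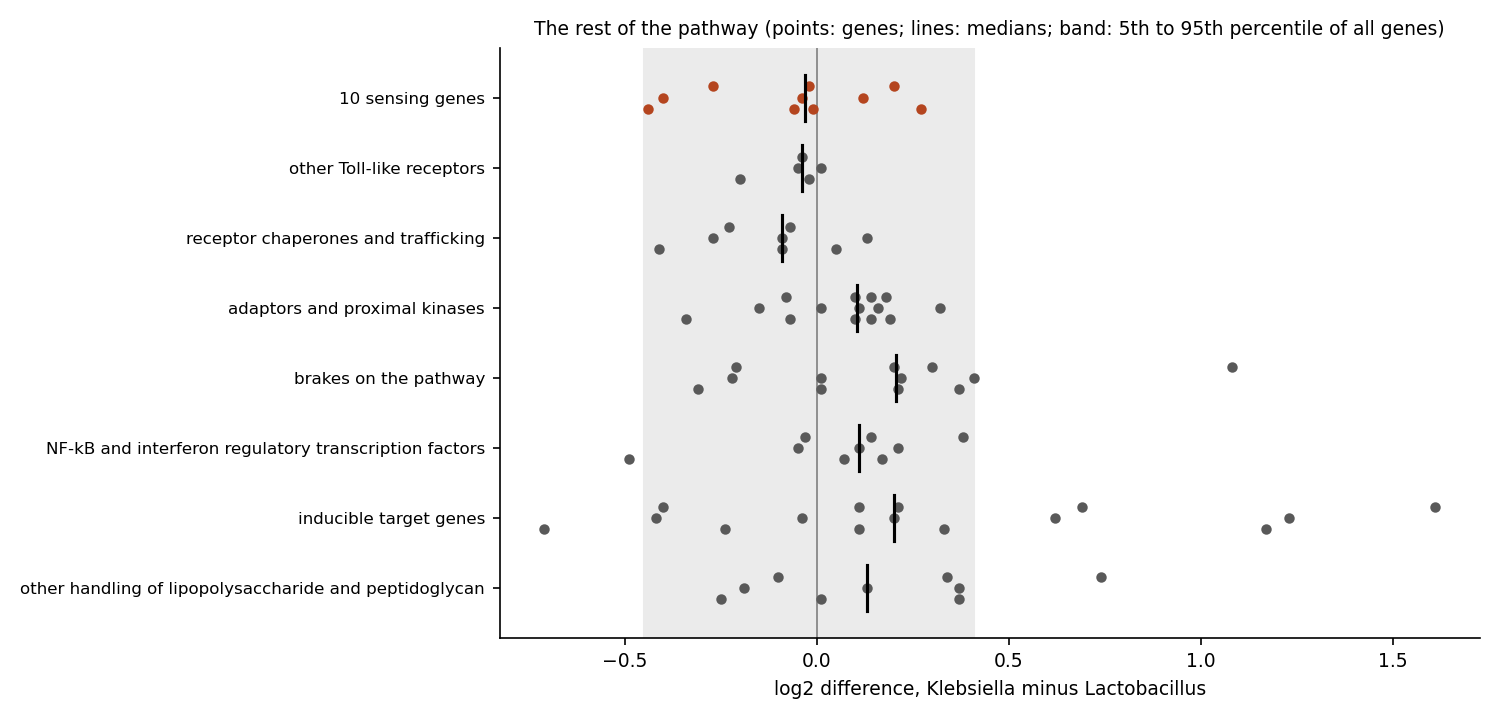
Log2 difference, Klebsiella minus Lactobacillus (x axis), of each tested gene in the 10 sensing genes and the 7 further lists (rows), with the median of each as a line; the grey band spans -0.45 to 0.41, the 5th to 95th percentile of all tested genes. Inducible targets spread the widest, from -0.71 for Saa1 to 1.61 for Ccl2, while the 10 sensing genes stay within the band.

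The 10 genes did not vary as one set. Of 45 pairs, 0 had a Pearson r above 0.8 over the 8 libraries on the log2 scale and 21 had an r below 0. The closest pair was Tlr1 with Ly96 (r 0.78, Spearman rho 0.69) and the most opposed was Tlr3 with Myd88 (r -0.82, rho -0.79). These values describe libraries of both groups together, with depth and tissue makeup shared by all genes of a library, and were not tested. Klebsiella 3 and Lactobacillus 3 were each highest for 2 and lowest for 2 of the 10 genes, Lactobacillus 1 was lowest for 3, and Klebsiella 2 was at neither end for any.

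Over all genes of mean FPKM of at least 1, about 13129 for each member, those most alike in pattern were named by Pearson r over the 8 libraries. With so many genes and 8 libraries high values come up for any gene, and they are descriptions. For the lipopolysaccharide complex they were Rlf (r 0.971), Mtrex and Smu1 for Tlr4, Tagap (0.968), BC025446 and Stap2 for Ly96, Commd6 (0.972), Scarna2 and Palb2 for Cd14, and Mfap1b (0.983), Iglv1 and Cfap300 for Lbp. For the lipopeptide receptors they were Cd302 (0.981), Ccdc163 and Rbak for Tlr1, and Rnf128 (0.98), Tmem186 and Surf1 for Tlr2. Tlr3 was most like Oxsm (0.969), Nhlrc3 and Jade2, and Tlr5 most like Piwil4 (0.966), Triqk and S100b. Tlr9 was most like Chst3 (0.984), Tnfrsf13c (0.982), the receptor for the B cell survival factor BAFF, and Haao. Myd88 was most like Mybbp1a (0.992) and Nip7 (0.991), which encode nucleolar proteins, and Nup160 (0.992), a nuclear pore protein.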

How the data were processed

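The authors deposited FPKM values for 49585 gene identifiers. The submitters' processing notes name STAR 2.5.1b, DESeq2 1.10.1, HTSeq 0.6.0 and CASAVA but not what each did. Their genome build was not given in the sources used here. A deposited table gives the count of filtered reads and the percent of bases at quality 30 or above, which was 90.65 in Klebsiella 4 and 94.03 to 94.57 in the others. Symbols for 49326 identifiers came from a table of gene names matched by identifier, and 259 had none. Positions came from GENCODE M21 and are not the authors'.

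Values were analysed as log2(FPKM + 0.5), a scale that understates changes of low genes, for genes of mean FPKM of at least 0.5. Groups were compared over all 16865 genes with limma 3.58.1 in R 4.3.3 (mean-variance trend, two-sided, Benjamini-Hochberg), at an adjusted p under 0.05. Ratios were printed as plain ratios of FPKM but compared as log2 ratios of FPKM + 0.5, by exact permutation over 70 assignments. Whole reads were recovered from FPKM steps for all 26963 of 26963 genes that had a value above 0 in 2 or more libraries. The tolerance was 1e-06 of a read, widened in proportion for genes of over 100 reads, and a factor common to all libraries of a gene cannot be seen. They give 15753959 to 21548070 reads per library and cover counting error only. Fit and recovery were tested on simulated data. Other steps used scipy 1.17.1, pandas 2.3.3 and numpy 2.4.6 in Python 3.11.15, with figures from matplotlib 3.10.9. The members, lists, tests and alternatives were chosen with earlier results of these data known. Named were the 10 genes, the 2 pathway genes of smallest p per list where none passed, those below the filter, and the 3 genes most like each member; Saa1, Ctrb1, Hoxb6, Hoxd13 and the marker genes below the highest of their list were chosen after their values were seen. Mouse numbers were not used to pair the libraries in the main fit.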

Additional observations from a re-analysis of the deposited data

Results flagged for a closer look

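Among 56 groups of 4 libraries, 3 held a library far from the other 3, and chance flags about 1 in 20 groups. Lbp was at 4.78 FPKM in Klebsiella 1, against 2.80 to 3.10 in the other Klebsiella libraries. Ptgs2 was at 5.87 FPKM in Lactobacillus 1, against 2.35 to 2.88 in the other Lactobacillus libraries. The ratio of Tlr1 to Tlr2 was 5.14 in Lactobacillus 2, where the other Lactobacillus libraries had 9.20 to 9.76. The same library held the highest Tlr2, 8.10 FPKM.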

How the results depend on the processing

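Of the 10 genes, 0 passed under each of 20 alternatives, likewise 0 of the further pathway genes and 0 of all genes tested. These counts therefore do not set the 10 genes apart from the rest. The ratios say nothing of stability: 0 of 4 passed under 13 alternatives, but 11 of these could not have passed (smallest p 0.0571 for 4 against 3 libraries, 0.1 for 3 against 3 and 0.125 with the block). For members and pathway genes, leaving out single libraries also gave 0 each time. Tlr1, Tlr5, Cd14, Ly96 and Myd88 kept their sign in every fit. Without single libraries Ly96 ranged from -0.47 to -0.33, Cd14 from -0.53 to -0.32, Tlr2 from -0.21 to 0.20, Tlr3 from -0.21 to 0.045, Tlr4 from -0.032 to 0.21, Tlr9 from -0.18 to 0.043 and Lbp from -0.17 to 0.06. Other sign changes were in Tlr2, Tlr9 and Lbp, whose differences were -0.04 to -0.01. Scaled to a constant total, Tlr2 was at 0.0077 and Lbp at 0.016, and with median-of-ratios factors at 0.0057 and 0.015. Without the pair with high Hoxb6, Tlr2 was at 0.033, Tlr9 at 0.12 and Lbp at 0.097. Lbp was at 0.062 without the pair with high Ctrb1 and 0.27 with log2 Hoxd13 as a covariate, and Tlr9 at 0.018 with array weights. The causes were not tested. Tlr9 gave no value with a filter at a mean FPKM of 1. With the Hoxd13 covariate Tlr2 was at -0.40, Tlr3 at -0.35, Tlr5 at 0.056 and Ly96 at -0.54.

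With the replicate block of mouse numbers 0 genes passed and 1027 had an unadjusted p under 0.05, against 1024 without it. Deviations of same-numbered mice correlated at 0.19, -0.1, -0.06 and -0.16, and 1 of 4 Klebsiella libraries was most like its own number. The labels give same-numbered mice nothing in common but the number, and a shared cage or batch was not tested. The count of genes with an unadjusted p under 0.05 was 431 without the pair with high Ctrb1 and 1693 with the Hoxd13 covariate. It was 1825 with array weights, and 572 to 2009 without single libraries. Of genes with such a p, 42.0% were higher in Klebsiella recipients, and 58.2% with a constant total. On the log2 scale counting error alone gives an SD of 0.143 for Ly96, where 0.152 was seen within groups, 0.132 for Lbp (0.26 seen), 0.127 for Tlr5 (0.388 seen) and 0.126 for Tlr9 (0.25 seen).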
